A study of Mus musculus with 18 samples.

Results

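DNA methylation in mouse heart muscle 72 h after myocardial infarction (MI) was compared with that after a sham operation, library against library. The comparison took 6 of the 18 libraries of the series, 3 from mice 72 h after MI and 3 from sham mice. Members were taken by these labels, with earlier results of these data known. In the series, MI was made by tying off the left anterior descending coronary artery, which feeds the front wall of the left ventricle, and sham mice had the suture passed without being tied. The MI mice were killed at 1 of 5 times between 10 min and 72 h after ligation, and every group held 3 mice. All mice of both groups were 12-week-old males of the strain written C57BL/6JR in the labels, and they were killed by cervical dislocation under isoflurane. They carried no genetic change that the labels mention, and all had been anaesthetized with sodium pentobarbital, for which the design text gives 50 mg/kg while the labels of the 72 h samples give 61, 62 and 63 mg/kg. Each library is a separate mouse per the labels, so the spread between libraries includes that between animals. Cardiomyocytes, the contractile cells of the heart, are the cell type entered in the labels and myocardium the tissue, but no isolation of cells is described, and whether the infarcted wall or the whole heart was taken is not given in the sources used here.

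The libraries were made by methylated DNA immunoprecipitation sequencing (MeDIP-seq), in which an antibody to 5-methylcytosine enriches methylated fragments of the genome before sequencing. In mammals this mark sits mostly on cytosines followed by guanine (CpG), most CpG sites outside promoters carry it, and CpG-rich promoters of active genes usually do not. In the days after an infarct, dying cardiomyocytes are cleared by neutrophils and macrophages, and fibroblasts begin to lay down scar. A peak in a bulk tissue list can therefore appear or disappear because the methylation within a cell type differs or because the mix of cell types differs, and these cannot be told apart here.

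Peaks of the 6 libraries were merged into regions wherever they overlapped by at least 1 base, which gave 118332 regions. A region with a peak in 3 of 3 libraries at 72 h and in 0 of 3 sham libraries is called gained here, and one with the reverse pattern lost. With all deposited peaks, 1102 regions were gained (0.931% of all regions) and 609 were lost (0.515%). Lists of different lengths tilt such counts, and each library was therefore also cut to its 44328 highest-scoring peaks, the length of the shortest list. Of the 99790 regions made from these equal lists, 698 were gained (0.699%) and 663 lost (0.664%). Gained regions made up 64.4% of all called regions with all peaks and 51.3% with equal lists, so the excess of gained regions was mostly absent once the lists had the same length. No single region can be called by a test, since the smallest two-sided exact p that 3 against 3 libraries allow is 0.1.

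The sequences of 5 promoters that called regions cover in whole or in part, and those of 2 microRNA genes within called regions, are shown first. They name places where a region overlaps the promoter of a gene or a microRNA gene. Promoter sequences are those of RefSeq for the build GRCm38.p6, from 250 bases before to 50 bases after the start, 5′ to 3′ on the strand of the gene, with every CG (the CpG site, which reads the same on both strands) in capitals. CG was present in 95.4% of the 21262 promoters of protein-coding genes in the table, and the median promoter held 13 of them. Mypn, the gene of a sarcomere protein, and Myf5, that of a skeletal muscle transcription factor, lie in regions gained with all peaks. The promoters of Cldn14, the gene of a tight junction protein, and Stx5a, that of a vesicle fusion protein, overlap regions gained with both kinds of list. Lyz1, the lysozyme gene of Paneth cells, has the promoter with the longest overlap with a region lost with all peaks. These 5 were chosen for printing after their values were seen.
Mypn (chr10:63203903-63204202, minus strand): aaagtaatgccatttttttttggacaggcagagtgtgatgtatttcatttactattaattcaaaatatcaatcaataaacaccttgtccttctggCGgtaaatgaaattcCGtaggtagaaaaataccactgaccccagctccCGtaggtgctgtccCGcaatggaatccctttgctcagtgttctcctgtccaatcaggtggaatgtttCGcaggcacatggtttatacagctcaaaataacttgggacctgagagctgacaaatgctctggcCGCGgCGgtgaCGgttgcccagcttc
Myf5 (chr10:107486085-107486384, minus strand): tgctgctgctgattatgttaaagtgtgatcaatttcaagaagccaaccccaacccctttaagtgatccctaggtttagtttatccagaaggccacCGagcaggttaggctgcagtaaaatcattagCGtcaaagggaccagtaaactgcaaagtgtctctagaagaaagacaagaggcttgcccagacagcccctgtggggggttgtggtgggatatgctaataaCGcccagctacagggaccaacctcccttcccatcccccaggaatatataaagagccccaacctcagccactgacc
Cldn14 (chr16:94008788-94009087, minus strand): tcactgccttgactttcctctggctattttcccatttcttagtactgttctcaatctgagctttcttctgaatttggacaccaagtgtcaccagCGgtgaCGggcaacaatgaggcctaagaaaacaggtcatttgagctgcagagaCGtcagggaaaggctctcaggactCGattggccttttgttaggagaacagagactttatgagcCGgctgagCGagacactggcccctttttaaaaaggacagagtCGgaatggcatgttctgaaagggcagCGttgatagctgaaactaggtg
Stx5a (chr19:8741174-8741473, plus strand): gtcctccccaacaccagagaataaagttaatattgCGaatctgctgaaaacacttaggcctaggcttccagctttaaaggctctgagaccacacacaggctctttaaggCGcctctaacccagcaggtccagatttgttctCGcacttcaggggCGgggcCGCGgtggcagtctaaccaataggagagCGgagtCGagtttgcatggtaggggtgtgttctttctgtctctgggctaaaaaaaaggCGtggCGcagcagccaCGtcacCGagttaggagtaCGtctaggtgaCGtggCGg
Lyz1 (chr10:117292819-117293118, minus strand): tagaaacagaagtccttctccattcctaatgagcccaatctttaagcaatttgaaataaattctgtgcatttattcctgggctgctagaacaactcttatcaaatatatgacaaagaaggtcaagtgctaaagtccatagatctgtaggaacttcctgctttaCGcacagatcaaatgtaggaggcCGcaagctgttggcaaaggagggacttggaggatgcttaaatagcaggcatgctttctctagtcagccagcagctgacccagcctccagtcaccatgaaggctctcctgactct

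The gained region covered all 300 bases at Mypn, Myf5 and Cldn14 and 178 bases at Stx5a, and the lost region covered 179 bases at Lyz1. The script counted 9 CG in the Mypn promoter, 3 in that of Myf5, 8 in that of Cldn14, 15 in that of Stx5a and 2 in that of Lyz1. Over all promoters under a gained region, 14 promoters of 12 genes, the median was 6 CG. Promoters under any region of the 6 libraries (1020) and those under a region with a peak in all 6 libraries (200) both had a median of 7 CG. With equal lists the median under gained regions was 8 CG, over 11 promoters, so its side of the 7 under any region depended on the list. These medians lay below that of all promoters, and no difference was tested. With all peaks, the observed-to-expected CpG ratio under gained regions had a median of 0.314, against 0.361 under any region and 0.567 over all promoters.

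With all peaks 4 microRNA genes lay in gained regions, Mir7031 in Sh2b3, Mir3100 in Dmpk, Mir6927 in Mllt6 and Mir6407 in Xpnpep1, and none in a lost region. Over all regions 0.931% were gained and 0.515% lost. The number of microRNA genes that held any region is not given here, so these 4 show no preference. With equal lists Mir3100 and Mir6927 lay in no gained region. MicroRNAs are short RNAs that pair with messenger RNAs through their seed, bases 2 to 8. It is given in capitals in the RefSeq mature sequences of Mir7031 and Mir3100.
mmu-miR-7031-5p: cCUGAGAGgccugaaggguggga
mmu-miR-7031-3p: aACCCUCUugcccucuccuag
mmu-miR-3100-5p: uUGGGAACggggugucuuuggga
mmu-miR-3100-3p: cUGUGACAcacccgcucccag

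These 4 seeds differ from one another. The region at Mir7031 was gained with both kinds of list and had peak scores of 94.31, 79.42 and 82.96 in 72 h libraries 1, 2 and 3. Scores were set by the authors peak by peak, and whether the lists share a scale is not given in the sources used here. Rankings and score cut-offs take the scores as printed. The scores thus rank and describe peaks here and measure no difference between libraries. At Mir3100, which lies in Dmpk, the gene of the kinase altered in myotonic dystrophy, the scores were 57.0, 67.86 and 58.38, and the region was gained with all peaks only. A library without a peak has none above the lowest score in the lists, which was 50, so an absent peak does not show that the DNA was unmethylated.

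As whole lists, the 6 libraries did not separate by group. The 72 h libraries held 58992, 60653 and 48608 peaks and the sham libraries 49404, 60130 and 44328, so the groups overlapped. The mean was 56084 ± 6528 (SD, n = 3) at 72 h and 51287 ± 8068 (SD, n = 3) in sham, a difference of 4797 peaks (exact permutation test, two-sided p = 0.6). The length under peaks was 57.3 ± 4.92 Mb (SD, n = 3) against 54.6 ± 7.07 Mb (SD, n = 3), a difference of 2.70 Mb with p = 0.5 in the same exact test, and with equal lists the difference had the opposite sign (-1.52 Mb, exact p = 0.6). Mean peak width was 1028 ± 103 bases (SD, n = 3) at 72 h and 1070 ± 86.0 bases (SD, n = 3) in sham (exact permutation p = 0.6). None of these differences was larger than the spread between libraries.

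How alike the lists were can be read from the bases that each pair of libraries shared, as a part of the bases covered by either (the Jaccard index). It averaged 0.372 for the 3 pairs within the 72 h group, 0.367 for the 3 pairs within sham and 0.366 for the 9 pairs between the groups. Pairs between groups ranged from 0.336 to 0.414 and so took in the whole range of the pairs within a group, 0.359 to 0.391. Regions called gained or lost are accordingly a small share of what varied: 13225 regions had a peak in exactly 3 of the 6 libraries but in libraries of both groups. Among all 14936 regions with a peak in exactly 3 libraries, the 1711 called regions were 11.5%, and with equal lists the share was 11.2% (1361 of 12125). The patterns 3 against 0 and 0 against 3 are 2 of the 20 ways to place 3 peaks in 6 libraries.

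The grid of presence shows what lies next to the called regions. Just outside the rule for a gain were 5429 regions with a peak in 2 of 3 libraries at 72 h and none in sham, and 2791 with a peak in all 3 at 72 h and in 1 sham library. For a loss the neighbouring counts were 3694 regions with a peak in 2 sham libraries and none at 72 h, and 1821 with a peak in all 3 sham libraries and in 1 at 72 h. A peak was present in all 6 libraries in 15033 regions.

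**Figure D1:**
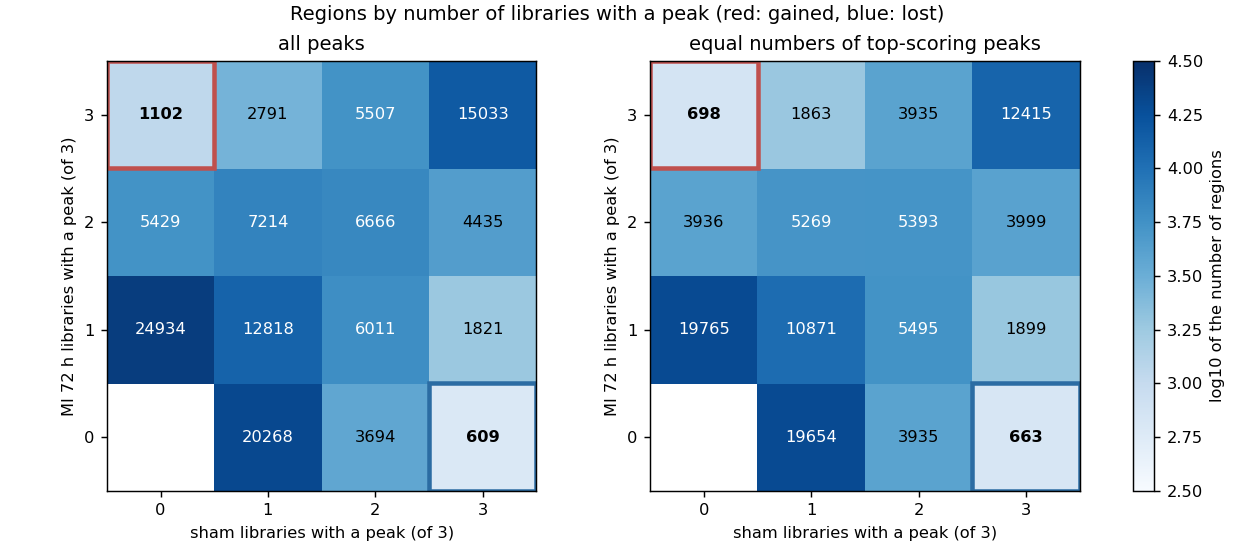
Number of regions by how many of the 3 sham libraries (horizontal axis) and of the 3 libraries at 72 h (vertical axis) had a peak, for all peaks (left) and for equal numbers of top-scoring peaks (right); colour gives log10 of the number. The gained corner holds 1102 regions and the lost corner 609 with all peaks, and 698 and 663 with equal lists.

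Many called regions depended on the kind of list. Of the 1102 regions gained with all peaks, 465 (42.2%) were also gained with equal lists, which is 66.6% of the 698 gained there. Of the 609 lost regions, 352 (57.8%) were also lost with equal lists, 53.1% of the 663 there. Among the 1102 gained regions, 445 kept a peak in only 2 of the 72 h libraries in the equal lists, 169 in 1 and 22 in none. The lowest score left in the equal lists was 61.19, 61.81 and 52.97 in 72 h libraries 1 to 3 and 53.63, 60.85 and 50.0 in sham libraries 1 to 3, so the weak peaks of the longer lists had gone. In the called regions the weakest of the 3 peaks was mostly near the floor: its median score was 56.9 in gained and 55.5 in lost regions, with 104.21 and 100.62 as the highest, while in regions with a peak in all 6 libraries the median was 70.6.

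Of the 10 strongest gained regions, ranked by the weakest of their 3 peaks among regions called with both kinds of list, 7 lay in protein-coding genes, 1 in a lncRNA gene and 2 outside genes. All positions are from the deposited lists, for which the processing notes name the build mm10. Capzb makes the beta subunit of the protein that caps actin filaments, which in muscle holds thin filaments at the Z-disc. The region at chr4:139238407-139239515 within Capzb scored 135.41, 132.27 and 103.46 in the 72 h libraries and had no peak in sham. Sptan1 makes the alpha chain of nonerythroid spectrin, the scaffold under the cell membrane. Its region at chr2:30004273-30005386 scored 159.46, 127.68 and 98.26.

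Ckap5, a microtubule-growth protein, held a gained region at chr2:91562985-91563611 with scores of 113.81, 110.55 and 95.18. Rbpms, an RNA-binding protein that regulates splicing in heart and smooth muscle, held one at chr8:33889334-33890626 with 104.51, 98.61 and 97.21. Klhl24, an adaptor that marks intermediate filament proteins for breakdown, held one at chr16:20107145-20107858 with 93.12, 151.96 and 112.57. In these 3 genes every score stood well above the floor of 50.

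Plxna2, a semaphorin receptor, held a gained region of 485 bases at chr1:194789560-194790044 with scores of 124.56, 101.08 and 95.18. Lrig1, which restrains growth factor receptors, held one at chr6:94693001-94694301, 6494 bases downstream of its start, with 92.31, 111.62 and 102.12. The lncRNA gene Gm46606 held one at chr17:83097598-83098763 with 128.32, 139.76 and 95.2. The remaining 2 of the 10 lay outside genes. The highest-ranked of all, at chr12:87756460-87757836 and 1322 bases from Gm21937, scored 112.28, 104.21 and 168.89, and the third, at chr2:61496478-61497144 and 12518 bases from Gm18844, scored 103.33, 140.33 and 102.06.

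Of the 10 strongest lost regions, 9 lay in protein-coding genes and 1 in a small nuclear RNA gene. Gabpb1 makes a subunit of the GA-binding protein, a transcription factor of nuclear genes for mitochondrial proteins. Its region at chr2:126651425-126652167 scored 130.07, 114.72 and 100.62 in the sham libraries and had no peak at 72 h. Pde4d, a phosphodiesterase that degrades cyclic AMP near the calcium release channel of cardiomyocytes, had its lost region at chr13:109546177-109547826, with 89.73, 97.91 and 97.56. Elp3, the catalytic subunit of the Elongator complex, had one at chr14:65556050-65556626 with 127.76, 104.99 and 88.07.

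Ephb1, an ephrin receptor, lost a region at chr9:102085158-102086996 that scored 106.13, 91.46 and 92.45 in sham. Mgat4a, a glycosyltransferase of the Golgi, lost one at chr1:37532130-37533574, 3552 bases downstream of its start, with 125.1, 95.75 and 87.45. Macrod1, which removes ADP-ribose from proteins, overlaps Flrt1, and the lost region at chr19:7137927-7139046 within both scored 115.97, 129.9 and 91.0. Ddc, the enzyme that makes dopamine and serotonin from their precursors, held a lost region at chr11:11852238-11853552, and Fgf14, a modulator of sodium channels, one at chr14:124492508-124493411. The other 2 of the 10 were at Gm42163 and at the snRNA gene Gm23924.

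**Figure D2:**
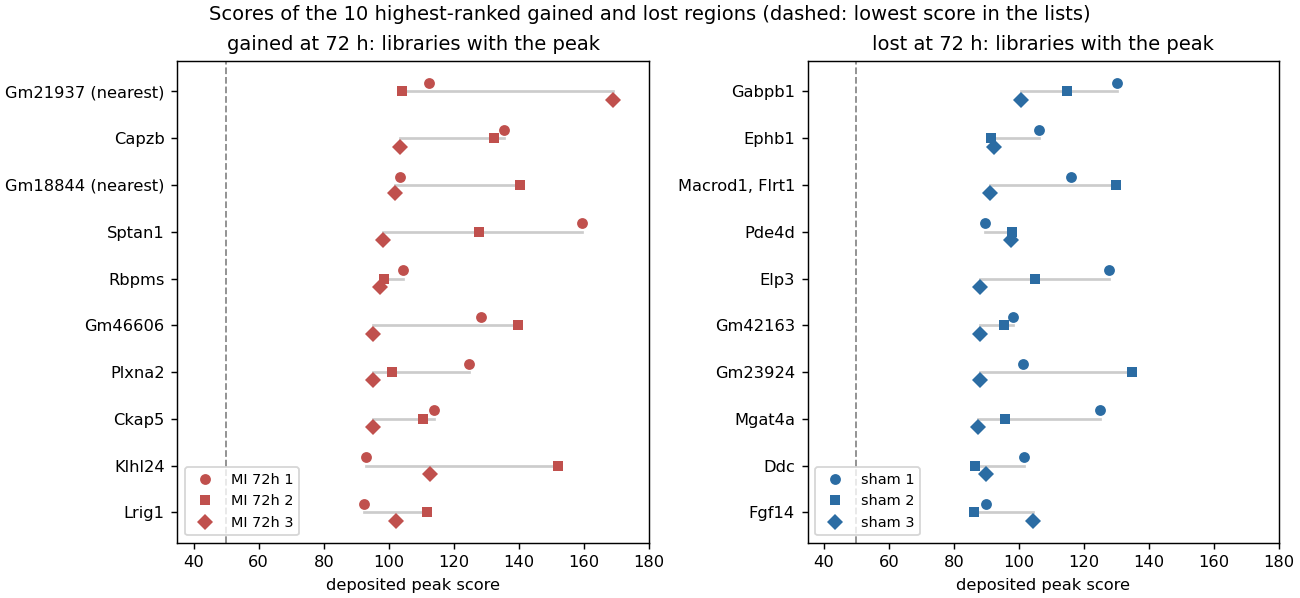
Deposited peak score (horizontal axis, the authors' scale) of the 10 highest-ranked gained regions in the 3 libraries at 72 h (left) and of the 10 highest-ranked lost regions in the 3 sham libraries (right), named by the gene that holds or lies nearest to them; the other group had no peak in any of them. The weakest score of each region lies between 86.27 and 104.21, against a floor of 50.

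By place, called regions lay in protein-coding genes more often than regions in general, and gained regions did so most. A protein-coding gene held 656 of the 1102 gained regions (59.5%), 335 of the 609 lost (55.0%) and 49.7% of all 118332 regions. Of the 13225 regions with a peak in exactly 3 libraries of both groups, 50.2% lay in one, and of those with a peak in all 6 libraries 40.9%. Outside any gene of the table were 31.2% of the gained, 34.6% of the lost and 40.5% of all regions. With equal lists the shares in protein-coding genes were 58.9% for gained, 55.2% for lost and 48.9% for all regions. These shares carry no test, since the same libraries chose the regions.

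Over libraries, the share of all peaks that lay within genes was 59.13%, 57.97% and 56.96% at 72 h and 56.53%, 58.0% and 56.28% in sham. All 3 libraries at 72 h were above the sham mean, yet the highest sham library exceeded the lower 2 of them. The means were 58.0 ± 1.09% and 56.9 ± 0.928% (SD, n = 3 each), and the exact permutation test gave p = 0.3 for the difference of 1.09 percentage points. Peaks in promoters, from 2000 bases before to 500 bases after a listed start, were 2.53 ± 0.0871% of peaks at 72 h and 2.47 ± 0.0832% in sham (SD, n = 3 each; exact permutation p = 0.5).

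**Figure D3:**
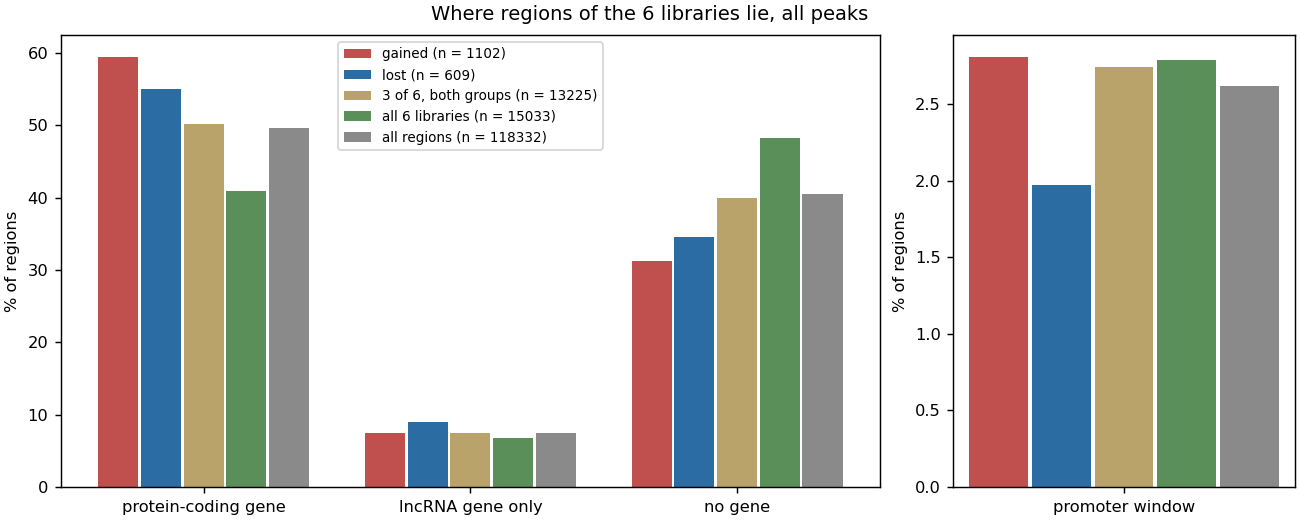
Share of regions, in percent, that overlapped a protein-coding gene, a lncRNA gene only or no gene (left), and that overlapped a promoter window (right), for gained and lost regions, for regions with a peak in exactly 3 of 6 libraries of both groups, for regions with a peak in all 6 libraries and for all regions; bars are shares of the n in the key and carry no error. Protein-coding genes held 59.5% of gained, 55.0% of lost and 49.7% of all regions, while promoters held 2.81%, 1.97% and 2.62% with all peaks, shown here, and 2.29%, 2.26% and 2.59% with equal lists.

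Along the chromosomes, the gained share of regions ran from 0.619% on X to 1.08% on 9, and the lost share from 0.281% on X to 0.724% on 9. Every chromosome held both kinds, and X held 11 gained and 5 lost regions. With equal lists X had 0.461% gained and 0.658% lost, so its low lost share did not hold there, and the lowest lost share was 0.464%, on 15. The median width was 1114 bases for gained and 1135 bases for lost regions, near the 1090 bases of regions in exactly 3 libraries of both groups and below the 1546 bases of regions with a peak in all 6.

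At promoters, 31 regions were gained (2.81% of gained regions) and 12 lost (1.97% of lost), against 2.62% of all regions. With equal lists the numbers were 16 gained (2.29%) and 15 lost (2.26%), against 2.59% of all regions, so the shares of gained and lost regions lay close together there. With both kinds of list 8 of the gained and 5 of the lost held. The strongest gained promoter region, at chr6:73468832-73470370 over 4931417E11Rik, scored 96.98, 116.95 and 74.9. Next were Ubl3, a ubiquitin-like protein that sorts cargo into small vesicles, with 127.05, 77.46 and 65.25, and Cct8l1, a chaperonin-like gene, with 64.71, 94.73 and 88.31. The region at chr19:8740364-8741351 scored 91.5, 138.73 and 64.27. It covers the start of 1700092M07Rik and ends before that of Stx5a, whose promoter it overlaps in part. Rbms2, an RNA-binding protein, H1f8, the linker histone of the egg, 1700093K21Rik and Cldn14 completed the 8, and at Cldn14 the scores were 61.81, 86.14 and 57.21.

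Of the promoter regions gained with all peaks only, 5 are described here, picked after their values were seen from a set that also holds Olfr12, Msh6, B3galt5, Cd48, Tbc1d23 and Foxr1, so they stand for no group of genes. Mypn makes myopalladin, which ties actinin and nebulin together at the Z-disc and binds the product of Ankrd1. The region at chr10:63203235-63204449 over its start scored 72.93, 60.69 and 64.41 in the 72 h libraries, had no peak in sham, and recurred before 72 h in 1 library of 6 h and 1 of 24 h. Ankrd1 makes CARP, a stress-responsive protein of the sarcomere and nucleus. Its region, centred 679 bases downstream of the start, scored 55.87, 53.76 and 80.83. Myf5, the myogenic factor of skeletal muscle, had 122.86, 55.29 and 64.71. Filip1 had 71.22, 62.04 and 51.75, and Abcc9, the sulfonylurea receptor of cardiac and smooth muscle potassium channels, had 66.54, 50.51 and 73.16. In all 5 of these genes at least 1 of the 3 peaks scored under 61.

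The 5 lost promoter regions that held with both kinds of list belonged to Lyz1, Fcer2a, Ubp1, Slc35f2 and Tspan9. The region at chr10:117292940-117294086, centred at -645 bases from the start of Lyz1, scored 65.61, 83.16 and 68.61 in sham. That of Fcer2a, the low-affinity IgE receptor of B cells, scored 64.26, 68.66 and 86.76 at chr8:3696135-3696700. Ubp1, a transcription factor, had 89.85, 73.68 and 71.6, Slc35f2, a solute carrier, 75.53, 62.55 and 66.73, and Tspan9, a tetraspanin, 82.77, 97.91 and 54.0. At Lyz1 a peak also stood in 7 of the 12 libraries of the earlier times.

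Among genes, 664 of 21883 protein-coding genes (3.03%) held a gained region within the gene or 2000 bases around it, and 358 (1.64%) a lost one. With equal lists 426 genes held a gained and 387 a lost region, so most of the excess of gained genes was absent there too. Long genes hold more regions, and the share rose with gene length from 0.297% gained and 0.183% lost in the shortest of 5 equal classes of genes to 8.98% and 5.35% in the longest. At least 2 gained regions lay in 38 genes and at least 2 lost in 9, with median lengths of 147763 and 110435 bases. For genes with several called regions, the number of all regions in the gene is given beside them.

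Nfia, Synpo2 and Stox2 each held 3 gained regions and no lost one. Nfia makes a transcription factor of the nuclear factor I family, and all 3 of its regions were gained with both kinds of list. They scored 87.89, 71.64 and 94.62, then 63.77, 107.84 and 105.81, and then 100.22, 79.6 and 87.93 in 72 h libraries 1 to 3, out of 18 regions in the gene. Synpo2 makes myopodin, an actin-bundling protein of the Z-disc, and its 3 of 12 regions were also gained with both kinds of list, with scores between 58.15 and 92.57. Stox2, a winged-helix protein, held 3 of 23, none of them gained with equal lists. Cmya5 and Atp8a2 were tied with many other genes at 2 gained regions. Cmya5, which makes the muscle protein myospryn, held 2 gained among 6 regions, with scores of 71.03, 90.59 and 54.45 and of 61.69, 104.54 and 71.71. Other tied genes had a higher share, such as Parm1 with 2 of 5. Atp8a2, a lipid flippase, held 2 of 33.

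Of the genes with several lost regions, Cdyl had both directions. It makes a corepressor that reads histone methylation, and of its 15 regions 2 were lost and 2 gained. The stronger lost region, at chr13:35855194-35857119, scored 64.03, 117.42 and 98.18 in sham, and the gained region at its promoter, at chr13:35739260-35740497, scored 56.81, 95.05 and 62.6 at 72 h. Pcdh15 held 2 lost of 40 regions, Wwox 2 of 106 with 1 gained beside them, Bcar3 2 of 13 and Mgat4a 2 of 14. A gene such as Cdyl thus has no single direction.

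In 10 lists of genes for heart muscle and repair, 25 genes held a gained and 6 a lost region with all peaks, and 16 and 10 with equal lists. By number of genes, the cytoskeleton and intercalated disc, the junction that joins cardiomyocytes end to end, had most. In this list 7 of 25 genes (28.0%) held a gained region and 1 (4.0%) a lost one, against 3.03% and 1.64% of all genes. The genes of this list are long, with a median of 130060 bases against 17170 for all genes, so the regions are the fairer base: 12 of the list's 307 regions were gained (3.91%) and 1 lost (0.326%), against 1.10% and 0.576% of all 61770 regions in or near protein-coding genes. All 7 genes also had a gained region with equal lists. The lists were drawn up with earlier results of these data known, so this count is no independent evidence of a direction.

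By role, the gained genes of the list were alpha-catenins, ankyrin, spectrin and actin binders. Ctnna1 and Ctnna3 make the alpha-catenins that link cadherins to actin at the disc. Ctnna1 held 2 gained regions of 3 in the gene, with scores of 83.2, 93.82 and 113.58 in the one called with both kinds of list, and Ctnna3 held 2 of 51, with 73.6, 89.19 and 77.75 in the one called with both. Ank3, the ankyrin that anchors sodium channels at the disc, held 2 of 46, with 64.76, 68.69 and 66.46 in the stronger. Utrn, the relative of dystrophin, held 1, with 94.72, 69.5 and 71.99. The lost region of the list was in Tln1, which couples integrins to actin, with 64.81, 72.39 and 92.2 in sham. The 25 contractile genes held 1 gained region, that of Ankrd1, and no lost one, and at 1 of 126 regions (0.794%) the gained share was near that of all genes (1.10%).

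Genes of calcium and ion transport are the longest of the lists, with a median of 186348 bases, and their share of gained regions was near that of all genes (1.10%). In this list 3 of 25 held a gained region and 1, Pde4d, a lost one, which is 3 of 277 regions gained (1.08%) and 1 lost (0.361%). With equal lists the direction turned, with 2 genes gained and 3 lost. Itpr2, a calcium release channel, had 84.5, 70.21 and 70.37, and Cacnb2, a subunit of the L-type calcium channel, 83.2, 59.57 and 74.82. Of the cardiac transcription factors, whose median length is 71720 bases, 3 of 25 (12.0%) held a gained region and none a lost one with all peaks. Over all protein-coding genes 3.03% held a gained and 1.64% a lost region. The transcription factor list had 4 of 189 regions gained (2.12%), and 1 gene, Foxp1, was also called with equal lists, with scores of 71.96, 65.84 and 63.61. Myocd, the coactivator of serum response factor, held a weaker region with 60.54, 51.82 and 58.58, and Nfatc2 held 2 among 17 regions.

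For repair and inflammation the counts were small. Over all protein-coding genes 3.03% held a gained and 1.64% a lost region, and 1.10% of their regions were gained and 0.576% lost. The shares of regions gained were above 1.10% for TGF-beta and Wnt signalling (4 of 138, 2.90%) and for inflammation (2 of 46, 4.35%). In the list of TGF-beta and Wnt signalling 3 of 25 genes (12.0%) held a gained region, Tgfb3, Tgfbr2 and Ltbp1, which make a ligand, the type II receptor and the protein that stores the latent ligand in the matrix. Tgfb3 had the strongest, at chr12:86077280-86078612 with 66.88, 104.54 and 108.92, and Tgfb2, the gene of another ligand, held a lost one with 61.57, 64.43 and 54.05 in sham. The gained regions of Tgfbr2 and Ltbp1 did not hold with equal lists. There 2 genes of this list held a gained and 2 a lost region, so the excess of gains was absent. Matrix genes, with 0.855% of 117 regions gained and the same share lost, had 1 gained, Sparc, with 61.29, 93.9 and 62.6, and 1 lost, at the promoter of Col6a1, with 105.99, 55.02 and 62.47. Cxcl10 and Il6ra were the gained genes of 25 for inflammation (8.0%) with all peaks, and with equal lists none was. The region of Cxcl10, a chemokine that draws T cells, also lies within Art3 and scored 56.46, 52.72 and 65.1, and that of Il6ra, the receptor for interleukin 6, scored 52.34, 52.77 and 52.7, close to the floor.

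Fuel use had 4 gained genes of 25 (16%) and 1 lost (4.0%), against 3.03% and 1.64% of all genes. By regions, 4 of 113 were gained (3.54%) and 1 lost (0.885%), against 1.10% and 0.576% in or near all protein-coding genes. With equal lists 3 genes held a gained and 1 a lost region. Slc2a4, the insulin-responsive glucose transporter of heart and muscle, scored 76.21, 116.07 and 104.75 at chr11:69943419-69946723. Acadl, an enzyme of fatty acid oxidation, scored 73.57, 77.23 and 95.51. Ppard, a nuclear receptor that turns on such enzymes, scored 57.8, 67.21 and 87.98, in a region gained with all peaks only. Esrrg, a nuclear receptor of mitochondrial genes, held a gained region at chr1:187660674-187662246 with 65.96, 77.19 and 84.43 and a lost one at chr1:188064524-188065876 with 56.12, 80.54 and 78.65 in sham. In the hypoxia list 1 of 25 genes (4.0%), Arnt, the partner of the hypoxia-inducible factors, held a gained region, with 57.86, 68.39 and 63.6. That was 1 of 89 regions (1.12%), near the share of all genes, and with equal lists no gene of this list was gained. Of 20 genes that write, read or remove DNA methylation, 1 (5.0%), Dnmt3a, which sets new methylation, held a called region. This lost region at chr12:3902302-3903061, with 76.15, 91.04 and 55.87 in sham, was 1 of 53 in the list (1.89%).

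**Figure D4:**
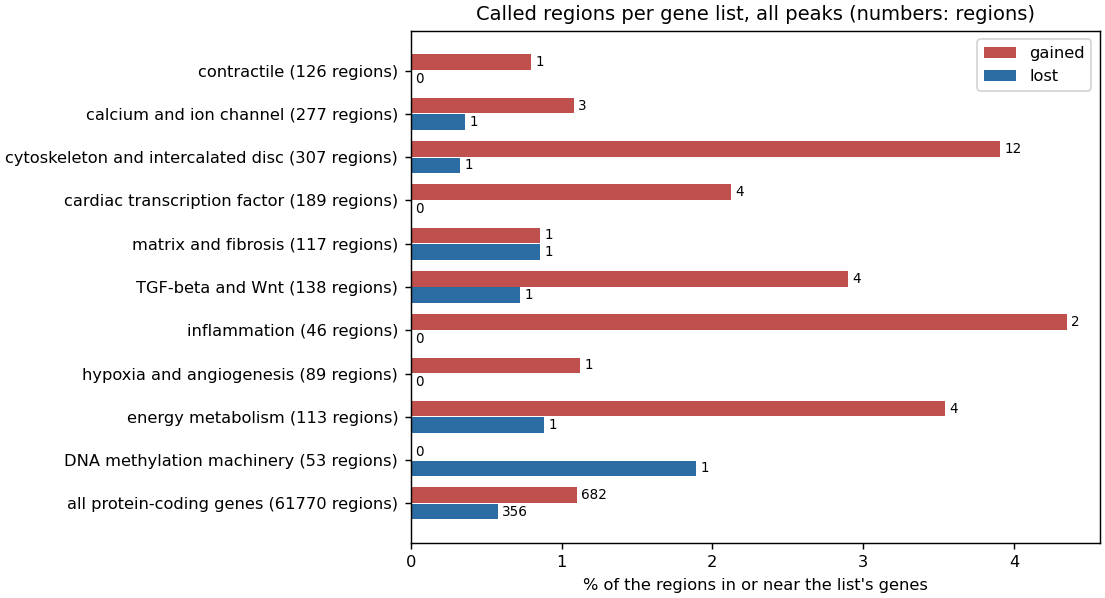
Percent of the regions in or within 2000 bases of each list's genes that were gained (red) or lost (blue) at 72 h with all peaks, with the number of regions at the end of each bar; the lowest pair of bars is all protein-coding genes. The cytoskeleton and intercalated disc list stands at 12 of 307 regions gained (3.91%) against 1.10% over all protein-coding genes, and the inflammation list rests on 2 of 46.

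Genes that mark cell types held called regions about as often as genes in general. Of 70 markers of 7 cell types, 2 held a gained region, Abcc9 among markers of smooth muscle and pericytes and Ms4a1 among those of lymphocytes, and none a lost one, beside 3.03% and 1.64% of all protein-coding genes. The 10 cardiomyocyte markers held 71 regions, none of them called. For macrophages and monocytes, 3, 4 and 2 of 10 markers had a peak at an end of the gene in the 72 h libraries and 1, 2 and 0 in sham, and for neutrophils 1, 1 and 2 against 1, 2 and 1. For cardiomyocytes the numbers were 2, 2 and 3 against 2, 2 and 1, for endothelium 1, 2 and 1 against 0, 2 and 0, and for smooth muscle and pericytes 3, 1 and 2 against 2, 1 and 1. Fibroblast markers had 1 in each library and lymphocyte markers 3 in all but sham library 3, which had 1. A peak at a marker gene does not measure how many cells of that type the tissue held, so neither the labelled cell type nor a change in the mix was tested by these counts.

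The 12 libraries from 10 min to 24 h had no part in choosing the regions, and those of 24 h stood apart from the 9 earlier ones. In equal lists of 34255 peaks, regions gained at 72 h had a peak in 23.7 ± 3.49% of cases in the 10 min libraries, rising to 33.1 ± 1.71% in those of 24 h (SD, n = 3 libraries each). In between, the 1 h libraries stood at 25.6 ± 2.30% and the 6 h libraries at 25.5 ± 1.30% (SD, n = 3 each). Regions lost at 72 h had one in 36.5 ± 2.49%, 39.0 ± 1.27%, 35.8 ± 0.871% and 31.5 ± 4.07% in order of time (SD, n = 3 each). Regions with a peak in exactly 3 of the 6 libraries of both groups stayed between 31.4% and 32.1% in the means of all 4 times. Up to 6 h every library held more of the lost than of the gained regions.

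The gained minus the lost share was -11.3, -19.3 and -7.73 percentage points in the 10 min libraries and -10.5, -12.4 and -17.2 in the 1 h libraries. The 6 h libraries had -10.4, -10.8 and -9.87, and the 24 h libraries 4.34, 3.76 and -3.38. The 3 libraries at 24 h lay above all 9 earlier ones. Over the 12 libraries this difference was related to the logarithm of time, with a Spearman rho of 0.713 (permutation p = 0.0143, also after adjustment over the 2 kinds of list) and a Pearson r of 0.718 (permutation p = 0.00742). With all peaks rho was 0.799 (permutation p = 0.00341, adjusted 0.00682) and r 0.782 (permutation p = 0.00206). Leaving out 2 of the 3 libraries at 10 min, the time farthest from the median, gave r between 0.663 and 0.880. Each share taken alone was less related to time. For gained regions rho was 0.626 with equal lists (permutation p = 0.0366) and 0.519 with all peaks (permutation p = 0.0889). For lost regions it was -0.541 (permutation p = 0.0747) and -0.324 (permutation p = 0.305). With all peaks the lost share averaged 36.3% at 6 h and 38.5% at 24 h, so its fall at 24 h was seen with equal lists only.

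The relation of the gained minus the lost share with time rested on the libraries at 24 h. Without these 3, rho was 0.316 (permutation p = 0.439), and without the 3 at 6 h it was 0.685 (permutation p = 0.06). Set against the 9 earlier libraries, the difference averaged 1.57 ± 4.30 points at 24 h (SD, n = 3) and -12.2 ± 3.71 before (SD, n = 9), which is 13.7 points higher (exact permutation test, two-sided p = 0.00455, the smallest it can give, a comparison chosen after the values were seen). The time groups may also differ in the make-up of their lists: against the median peak width of a library the difference had r = -0.504 (permutation p = 0.0874), and against its number of peaks r = 0.443 (permutation p = 0.148). The part of these in the result was not tested.

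**Figure D5:**
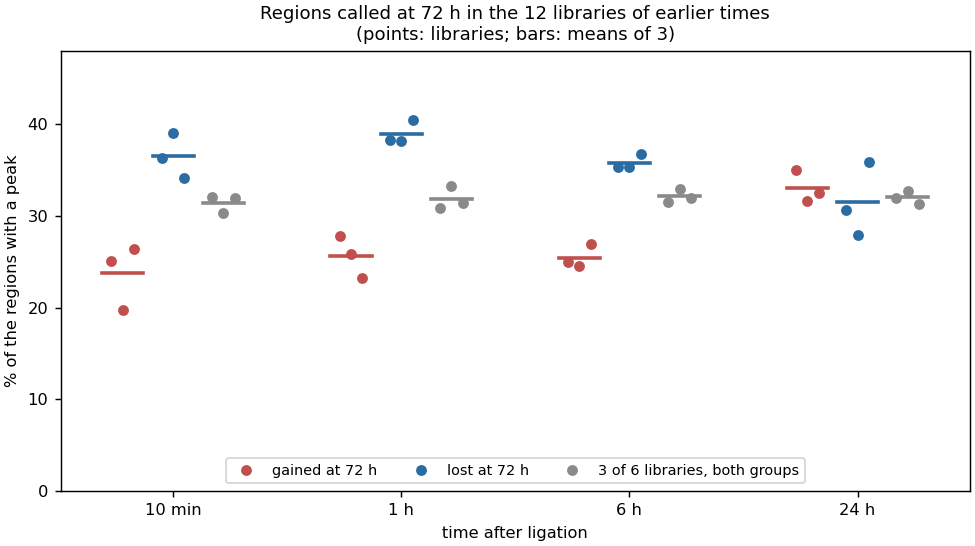
Percent of the regions gained at 72 h (red), lost at 72 h (blue) or with a peak in exactly 3 of the 6 libraries of both groups (grey) that had a peak in each library from 10 min to 24 h (points, 3 libraries a time, horizontal bars at their mean), with equal numbers of top-scoring peaks. Gained regions go from means of 23.7% to 25.6% up to 6 h to 33.1% at 24 h, and lost regions from 35.8% to 39.0% to 31.5%, while the grey points stay near 32%.

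Single regions varied in how often they had a peak before 72 h. Of the 10 strongest gained regions, those in Capzb, Plxna2, Lrig1 and Gm46606 had a peak in all 3 libraries at 24 h, while that in Rbpms had one in 1 of the 12 earlier libraries. Among the strongest lost regions, those in Gabpb1 and Ddc had no peak in any library at 24 h, and that in Ephb1 had one in all 3. The gained promoter regions of Abcc9, Cxcl10, Filip1 and Cdyl had no peak in any of the 12 earlier libraries. Over the whole series they thus had a peak in the 3 libraries of 72 h and in none of the other 15. All were gained with all peaks only. The weakest of the 3 peaks scored 50.51, 52.72, 51.75 and 56.81 in this order, near the floor of 50. Peaks under that floor in the other libraries would not be listed, so these regions are not shown to be specific to 72 h. How many of all gained regions had no peak in the 12 earlier libraries is not given here. These examples were picked after their values were seen.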

How the data were processed

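MeDIP-seq was made from myocardial DNA of 18 mice, and the peak lists of 6 were compared. Per the labels' protocols, DNA was sheared, immunoprecipitated, amplified and sequenced in pairs. The submitters' processing notes name Bowtie2, MACS2 and mm10, with no versions. The authors deposited 1 list per library, with chromosome, start, end, name and a score for each peak; the scale of this score is not given in the sources used here. No read depth was used, so no counting interval is given, and the precision rests on 3 mice per group.

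Peaks overlapping by at least 1 base were merged with Python 3.11.15, pandas 2.3.3 and numpy 2.4.6, and single values were compared with two-sided exact permutation tests over the 20 assignments (scipy 1.17.1). Correlations used 100000 permutations. The procedure was tested on simulated lists. Genes and promoters are those of RefSeq GRCm38.p6; of 21883 protein-coding genes, 17491 had a promoter with a strand. Promoters touched a region in 4.8% of cases, against 9.32% and 9.56% when moved by 10000 bases, so the build of the lists was taken to match. Exons and introns were not analysed here, and 1 gene of the lists is not reported here by name.

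Regions were named by rule: the 10 gained and 10 lost called with both kinds of list and highest in their weakest score, up to 8 of each at promoters, the 5 genes with most regions, and every listed gene with a called region. Other named genes are said in the text to be picked after their values were seen. The members and lists were chosen with earlier results of these data known.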

Additional observations from a re-analysis of the deposited data

How the results depend on the processing

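Counts of called regions followed the strictness of the lists. With all peaks, gained regions numbered 617 at scores of at least 70, and lost regions 393 at scores of at least 60 and 250 at 70. With 20000 peaks per library, 325 were gained and 299 lost. Leaving out 1 library, which by construction asks for fewer libraries, gave 1599 to 3699 gained and 1047 to 2176 lost regions with all peaks, and 1207 to 2118 gained and 1246 to 2132 lost with equal lists. Requiring 50% of a region to be covered, or merging peaks within 500 bases, moved no count by over 1.5 times. Genes of the lists with a gained region fell from 25 to 16 with equal lists, and those with a lost region rose from 6 to 10.

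The difference in length under peaks was -1.52 Mb with equal lists and between -0.141 and 6.73 Mb without 1 library, and that in mean width between -90.6 and 11.6 bases, also positive without sham replicate 3 (5.99 bases). Every exact p stayed above 0.05, which 3 against 3 libraries cannot pass. Same-numbered libraries of the groups deviated together with correlations of 0.00782, 0.0829 and 0.0736, against -0.112 to 0.0401 for pairs with other numbers. The values 0.0829 and 0.0736 lay above all pairs with other numbers, and 0.00782 lay among them. The main tests were unpaired, and whether same-numbered libraries shared more than a number was not tested. Pairing the libraries by number leaves each mean difference the same by construction, 4797 peaks for instance. The sign-flip exact p over these pairs ran from 0.25, the smallest possible, to 1.0. It was 0.25 for peak number, length under peaks and mean peak width, where every same-numbered pair differed in the same direction. For the share of peaks within genes the sign-flip exact p was 0.5. Both ends of every gene in place of starts, an alternative chosen after seeing the data, gave a difference of 0.283 percentage points (exact p = 0.2). The relation with time was weaker without the 6 h libraries (rho 0.685) and without those at 24 h (rho 0.316), both chosen after seeing the data, and its causes were not tested.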

Other observations

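With equal lists, regions came in that the full lists did not call, and some lay in genes already holding a gained region elsewhere. Since equal lists are part of the full ones, these regions also had their 3 peaks in the full lists, where the other group had a weaker peak or the merging of peaks differed. Itpr2, a calcium release channel, had a lost region with scores of 68.95, 98.99 and 57.25 in sham, and Tgfbr2, the type II TGF-beta receptor, one with 75.17, 86.56 and 88.4. The gained region of Itpr2 held with both kinds of list, so this gene had both directions with equal lists. The regions of Tgfbr2 gained with all peaks did not hold there, so its gains and this loss came from different lists. Among matrix genes, Mmp2, a collagen-degrading protease, had a lost region with 64.94, 100.4 and 53.09, and Col8a1, a collagen of vessel walls, one with 66.72, 95.5 and 83.53. These genes are named after their values were seen.

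At promoters, with the same limit, equal lists added gained regions at Ccl27b, a chemokine gene, at Coa8, an assembly factor of cytochrome oxidase that shares its region with Bag5, and at Cdc14a, a phosphatase. The weakest of the 3 scores was 86.34 at Ccl27b, 106.3 at Bag5 and 77.92 at Cdc14a. They added a lost region shared by Cldn6 and Tnfrsf12a, the receptor for the cytokine TWEAK, with a weakest score of 71.6.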
